A study of Mus musculus with 9 samples.

Results

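Axon guidance genes are examined here as a group of RING1B-bound loci in mouse embryonic stem cells (mESCs). A RING1B peak was taken as a member when the gene listed beside it in the deposited table belonged to the ephrin, Eph receptor, semaphorin, plexin, neuropilin, Slit, Robo, netrin, netrin-G, Unc5, Slitrk or Lrrtm families. The gene beside a peak was assigned by proximity when the lists were made, and need be neither the nearest annotated gene nor the gene that the peak regulates. By this rule 44 of 2347 peaks in Eed+/+ cells and 32 of 1810 peaks in Eed-/- cells were members, 76 of 4157 in all, at 42 genes.

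The series compared RING1B occupancy by chromatin immunoprecipitation and sequencing (ChIP-seq) in wild-type (Eed+/+) and Eed-/- mESCs, both of strain C57BL/6, grown on inactivated fibroblast feeders with leukemia inhibitory factor and given no further treatment. The question was whether RING1B, a Polycomb repressive complex 1 (PRC1) subunit, still occupies its targets when PRC2 cannot place H3K27me3. There were 9 samples. RING1B was precipitated in 1 sample of Eed+/+ cells and 3 of Eed-/- cells, unprecipitated input DNA made up 3 samples of Eed+/+ cells, and the CBX7 samples were not analysed here. Peaks were deposited as 2 lists, 1 per genotype. The Eed-/- cells lacked EED constitutively, and the labels number their 3 RING1B samples as replicates, whereas the methods describe sequencing lanes that were combined before peaks were called. No replicate error can therefore be given, no test was run between the genotypes, and the intervals of levels and ratios below cover counting error only. Those of shares and medians are taken over loci, and none covers variation between samples. The Eed+/+ RING1B library held 16814546 mapped tags and the Eed-/- library 70343706, which is 4.18 times as many. Both lists required more than 100 tags in a peak, and the false discovery rate (FDR) was under 2%.

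Axon guidance molecules steer growing axons and migrating cells by attraction or repulsion. Ephrins bind Eph receptor tyrosine kinases on neighbouring cells, semaphorins signal through plexins with neuropilins as coreceptors, Slits repel axons through Robo receptors, and netrins act through Unc5 and Dcc receptors. Polycomb complexes keep many developmental genes silent in mESCs, where RING1B monoubiquitylates histone H2A at CpG islands, stretches of DNA rich in unmethylated CG dinucleotides that commonly cover promoters.

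The sequence under these peaks is shown for a locus bound in both genotypes, one listed in Eed+/+ cells only and one listed in Eed-/- cells only, taking the central 300 bases of the peak (build mm9, plus strand, read from the NCBIM37 genome). CG dinucleotides are in capitals because every member peak overlapped a CpG island. So did 95.1% of all Eed+/+ peaks and 95.7% of all Eed-/- peaks.
Ntn1, both genotypes, chr11:68198722-68199021: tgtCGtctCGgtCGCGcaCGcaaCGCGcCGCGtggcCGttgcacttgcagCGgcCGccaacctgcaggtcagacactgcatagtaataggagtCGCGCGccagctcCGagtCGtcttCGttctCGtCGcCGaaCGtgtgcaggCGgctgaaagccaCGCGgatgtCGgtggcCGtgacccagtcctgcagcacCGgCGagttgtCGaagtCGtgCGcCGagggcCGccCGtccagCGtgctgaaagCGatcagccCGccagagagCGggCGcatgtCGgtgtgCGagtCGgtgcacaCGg
Robo4 by the deposited name, Eed+/+ only, chr9:37241110-37241409: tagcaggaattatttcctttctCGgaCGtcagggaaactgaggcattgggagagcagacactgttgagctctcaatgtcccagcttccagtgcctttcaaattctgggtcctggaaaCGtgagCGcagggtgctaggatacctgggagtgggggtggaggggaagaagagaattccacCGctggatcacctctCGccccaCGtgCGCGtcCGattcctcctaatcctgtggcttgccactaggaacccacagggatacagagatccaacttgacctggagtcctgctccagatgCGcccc
Plxna1, Eed-/- only, chr6:89312792-89313091: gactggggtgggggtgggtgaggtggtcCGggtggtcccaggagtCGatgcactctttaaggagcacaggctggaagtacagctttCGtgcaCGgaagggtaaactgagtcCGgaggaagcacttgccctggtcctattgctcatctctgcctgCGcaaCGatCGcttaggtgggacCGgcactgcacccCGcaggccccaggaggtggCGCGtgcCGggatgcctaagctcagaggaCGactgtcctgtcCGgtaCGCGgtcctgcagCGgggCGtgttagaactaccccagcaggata
The Ntn1 window held 44 CG dinucleotides at a GC content of 67.3% and lay inside the gene over an exon. Its centre was 1457 bp from an annotated start site on the minus strand. Only 6.6% of all Eed+/+ peaks had as many in their central window. The Robo4 window held 11 CG dinucleotides, a number that 82% of Eed+/+ peaks reached or passed. The Plxna1 window, centred 334 bp before the Plxna1 start on the minus strand, held 19, a number that 70.7% of Eed-/- peaks reached or passed. The CG content of the 3 windows thus ran from among the richest of all peaks to well below the median of 21 over the Eed+/+ list. Over the Eed-/- list the median was 25.5.

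The annotation (GENCODE M1) held 82 protein coding genes with these family names, of which 39 were named for an Eed+/+ peak and 31 for an Eed-/- peak. Among all annotated coding genes, 8.09% were named for an Eed+/+ peak and 6.75% for an Eed-/- peak. Peaks were listed in both genotypes for 28 of the 82 genes, in Eed+/+ cells only for 11, in Eed-/- cells only for 3 and in neither for 40.

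**Figure D1:**
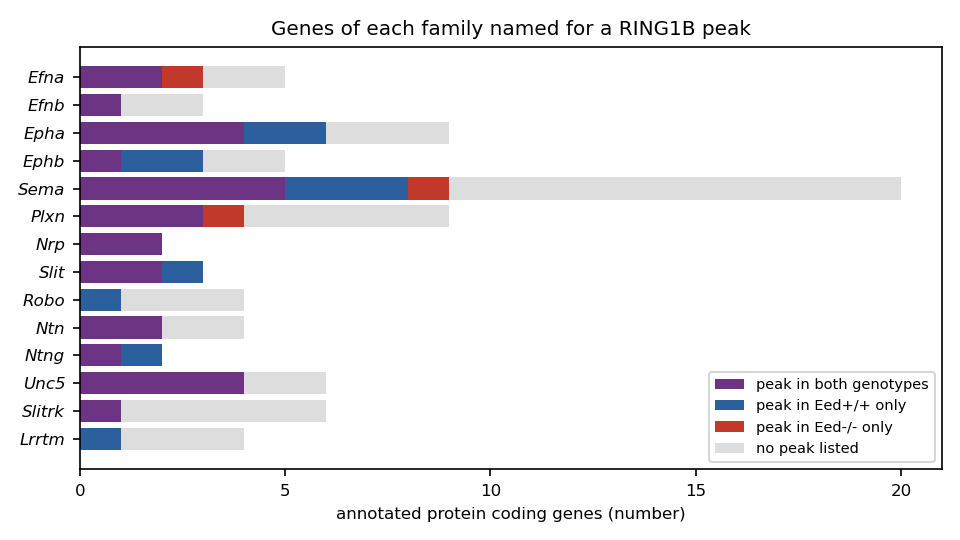
The number of annotated protein coding genes in each family (horizontal axis) is divided by whether a RING1B peak was named for the gene in both genotypes, in Eed+/+ cells only, in Eed-/- cells only or in neither. The neuropilin, Slit and netrin-G families had a peak for every gene, whereas 11 of 20 semaphorin genes had no listed peak.

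Coverage differed widely between families. Both neuropilins, Nrp1 and Nrp2, and all 3 Slit genes were listed in Eed+/+ cells, with Slit1 missing from the Eed-/- list. All 4 netrin receptors Unc5a, Unc5b, Unc5c and Unc5d were listed in both genotypes, and the other 2 genes that the prefix captures, Unc50 and Unc5cl, are not netrin receptors and had no peak. By contrast, of the semaphorins of class 3, the secreted ligands of neuropilins, only Sema3f was listed, and none of the class B plexins Plxnb1, Plxnb2 and Plxnb3 was. Robo1 and Robo2, the principal Slit receptors of the nervous system, had no listed peak in either genotype, nor had Epha1, Epha2, Epha3, Ephb4 and Ephb6. Of the synaptic adhesion genes, which encode leucine-rich repeat proteins that organise synapses, only Slitrk5 and Lrrtm1 were listed among 10.

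When genes were grouped by role, 18 of 37 ligand genes and 19 of 35 genes of the receptor families (Unc50 and Unc5cl included) had an Eed+/+ peak, and 15 of each had an Eed-/- peak. The overlap between genotypes was also alike, with 13 of 19 ligand peaks (68.4%, exact 95% binomial interval 43.4 to 87.4) and 15 of 22 receptor peaks (68.2%, 45.1 to 86.1) of Eed+/+ cells overlapping an Eed-/- peak. The intervals are wide and a difference of many percentage points would not be detectable with so few peaks.

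Over all members, 29 of 44 Eed+/+ peaks overlapped an Eed-/- peak by at least 1 bp, or 65.9% (50.1 to 79.5), where 53.1% of all Eed+/+ peaks did. In the other direction 29 of 32 Eed-/- peaks overlapped an Eed+/+ peak, or 90.6% (75 to 98), against 73.1% of all Eed-/- peaks. Each overlap joined 1 peak to 1 peak of the same named gene, giving 29 pairs. These counts depend on the thresholds of the weaker Eed-/- list: with an FDR of at most 1% in both lists 7 of 44 Eed+/+ peaks (15.9%) overlapped, and 3 of 44 (6.82%) did when Eed-/- peaks had to keep more than 100 tags after scaling to the Eed+/+ depth. Both settings thin the whole Eed-/- list. An FDR of 1% or less was held by 21.9% of Eed-/- members and 24.1% of all Eed-/- peaks. More than 100 tags at the Eed+/+ depth were kept in 10.3% of the 29 member pairs and 8.1% of all 1247 pairs.

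Occupancy was compared as a level, the tags in a peak per kb of its own width per 1000000 mapped tags. In the 29 pairs the Eed+/+ level had a median of 4.97 (lowest 2.70, highest 15.7) and the Eed-/- level a median of 1.26 (1.04 to 2.47). Over all 1247 pairs the Eed+/+ levels ran from 1.81 to 18.0 and the Eed-/- levels from 0.849 to 2.92. The ranges thus overlapped over all pairs but not over the 29. The Eed-/- level was the lower in 29 of 29 pairs, and the same held in 100% of the 1247 pairs over the whole lists. The median ratio of Eed-/- to Eed+/+ level was 0.252 (quartiles 0.172 and 0.297), beside 0.225 over all pairs. Each level is taken over the width of its own peak, and most Eed-/- peaks were the narrower. With the tags of both peaks set over the Eed+/+ width, the median ratio was 0.181, beside 0.187 over all pairs. Members thus stood above all pairs by the first measure but not by the second. The inverse of the depth ratio is 0.239, the level ratio at which 2 peaks of equal width hold equal raw tag counts. Raw counts in the pairs ran from 598 Eed+/+ and 204 Eed-/- tags at Efna5 to 118 and 358 at Sema6b. At Slit3 they were equal at 104 tags in each library. The thresholds bear on these levels directly, since 100 tags in a peak of the median member width correspond to a level of 2.05 in the Eed+/+ library and of 0.561 in the Eed-/- library.

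**Figure D2:**
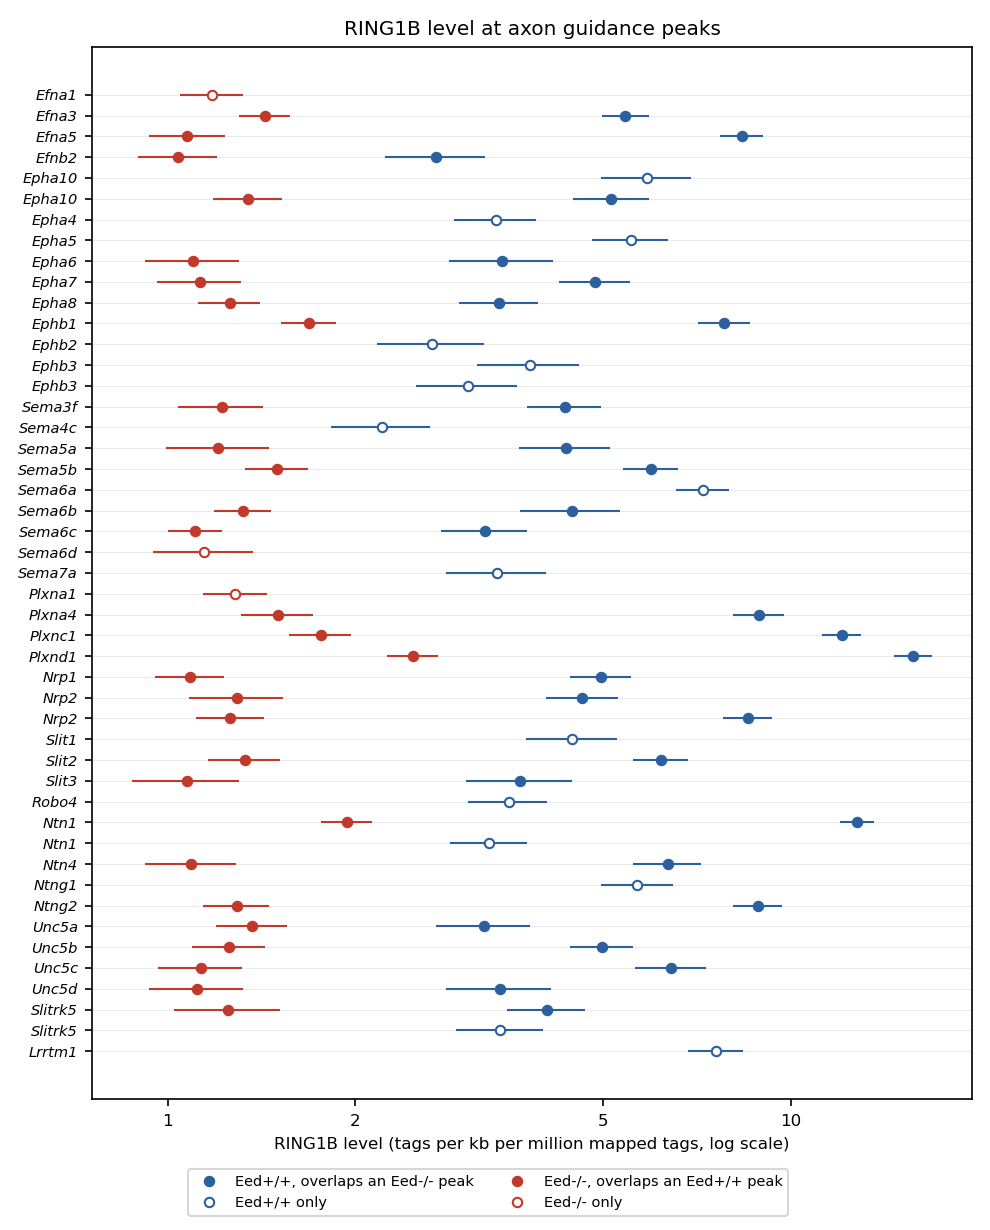
RING1B level (tags per kb per 1000000 mapped tags, log scale) is shown for each axon guidance locus in Eed+/+ (blue) and Eed-/- (red) cells, with exact 95% Poisson intervals of the tag count as bars, filled points for overlapping peaks and open points for peaks listed in a single genotype. Every filled red point lies to the left of its blue partner, and the highest levels of both genotypes belong to Plxnd1.

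Among the ligands, the locus of highest fold enrichment was Ntn1, which encodes the secreted netrin that attracts commissural axons. Its peak at chr11:68196544-68201199 covered an annotated start site inside the gene. It had 999 tags, a level of 12.8 (12.0 to 13.6), in Eed+/+ cells, and 437 tags, a level of 1.94 (1.76 to 2.13), in Eed-/- cells. The level was higher in Eed+/+ cells by far more than the counting error, at a ratio of 0.152 (0.135 to 0.170), and the summits lay 21 bp apart. Fold enrichment over the local background was 49.15 in Eed+/+ and 4.84 in Eed-/- cells. A further Ntn1 peak over an annotated upstream start at position 68214325, with 199 tags and a level of 3.28, was listed in Eed+/+ cells only.

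Ntn4, a netrin found in basement membranes, was at 6.34 in Eed+/+ cells (chr10:93102897-93105289, fold enrichment 39.46) and 1.09 in Eed-/- cells. Ntng2, a membrane-anchored netrin-G that acts at synapses, was at 8.85 (chr2:29106475-29109712) and 1.29, with the second lowest ratio of the 29 axon guidance pairs at 0.146. Its relative Ntng1, at 5.67 in Eed+/+ cells with 224 tags, had no Eed-/- peak. The netrin loci therefore spanned both outcomes, with low ratios wherever a pair was listed.

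The ephrins showed the widest spread of ratios within a family type. Efna5, an ephrin that shapes topographic maps, was at 8.33 in Eed+/+ cells (chr17:63228475-63232743, 598 tags) and 1.08 in Eed-/- cells (204 tags), the lowest ratio of the 29 pairs at 0.129 (0.110 to 0.152). Efnb2, a transmembrane ephrin that also marks arteries, was at 2.70 (chr8:8659320-8661899, 117 tags) and 1.04 (189 tags), a ratio of 0.386 (0.305 to 0.490). The 2 intervals do not overlap, although the Eed-/- levels of these loci were nearly equal and the difference lay in the Eed+/+ cells. Efna3 had the widest member peak of the Eed+/+ list, 5738 bp at chr3:89121406-89127143, with levels of 5.42 and 1.43.

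The secreted repellents Slit2 and Slit3 were at 6.18 and 3.68 in Eed+/+ cells and 1.33 and 1.07 in Eed-/- cells. Slit1, at 4.45 in Eed+/+ cells with 141 tags and a fold enrichment of 15.93, was listed in Eed+/+ cells only, although its level was above that of Slit3. Semaphorin levels were of the same order. In the pairs they ran from 3.23 at Sema6c to 5.96 at Sema5b in Eed+/+ cells and from 1.11 to 1.50 at the same genes in Eed-/- cells. The semaphorin of highest fold enrichment in Eed-/- cells, 8.06, was Sema6b, a transmembrane semaphorin, with 118 tags in Eed+/+ and 358 tags in Eed-/- cells.

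Among the receptors, the 3 plexins listed in Eed+/+ cells had the highest levels in that genotype. Plxnd1, the receptor of endothelial cells and neurons for Sema3e, had the highest level of any member in both genotypes, 15.7 (14.6 to 16.8) in Eed+/+ cells (chr6:115942524-115945518, 790 tags) and 2.47 (2.25 to 2.71) in Eed-/- cells (446 tags). Plxnc1, which binds Sema7a, was at 12.1 (chr10:94405144-94408801) and 1.76, and Plxna4, a signalling partner of neuropilins, was at 8.88 (chr6:32536010-32538970, fold enrichment 40.64) and 1.50. The 3 ratios were close, at 0.158, 0.146 and 0.169. Their ligand and receptor partners were not all listed: Sema3e had no peak, and Sema7a was listed in Eed+/+ cells only, at 3.38.

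The neuropilins, coreceptors for class 3 semaphorins, carried peaks at both genes in both genotypes. Nrp1 was at 4.95 (303 tags) in Eed+/+ cells and 1.09 (241 tags) in Eed-/- cells. Nrp2 had a peak over its start at 4.63 and 1.29, and another peak just inside the gene at 8.51 and 1.26. The intragenic Nrp2 peak was thus the stronger in Eed+/+ cells, whereas the intervals of the pair in Eed-/- cells, 1.08 to 1.53 and 1.11 to 1.43, overlapped.

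The Unc5 receptors mediate repulsion by netrins. Unc5b was at 4.97 (fold enrichment 28.74, chr10:60291795-60295323) in Eed+/+ cells and 1.25 in Eed-/- cells, and Unc5c at 6.43 and 1.13. Unc5a had the highest ratio of the 29 axon guidance pairs, 0.425 (0.342 to 0.530), from 3.22 with 133 tags in Eed+/+ cells (chr13:55049499-55051958) and 1.37 with 233 tags in Eed-/- cells. Unc5d was at 3.41 and 1.11. The order of the Eed+/+ levels, Unc5c above Unc5b above Unc5d and Unc5a, was not that of the Eed-/- levels, where Unc5a was the highest and the counting intervals of all 4 overlapped.

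Of the Eph receptor tyrosine kinases, Ephb1, which guides retinal axons at the optic chiasm, had the highest level, 7.80 in Eed+/+ cells (429 tags) and 1.69 in Eed-/- cells (387 tags). Epha7 was at 4.85 and 1.13 with a fold enrichment of 22.01 in Eed+/+ cells, and Epha6 at 3.44 and 1.10. Epha8 had the third highest ratio of the pairs, 0.369, from 3.40 and 1.26 (chr4:136511050-136514283 in Eed+/+ cells). Of 11 Eed+/+ peaks named for Eph genes, 5 overlapped an Eed-/- peak, where 53.1% of all Eed+/+ peaks did, and the 6 without a partner include both peaks named for Ephb3, which lay far from that gene.

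Slitrk5, a synaptic adhesion gene and the only member of its group listed in both genotypes, was at 4.05 (192 tags) in Eed+/+ cells and 1.25 (104 tags) in Eed-/- cells over its start. A further peak inside the gene, at 3.41 with 157 tags, was listed in Eed+/+ cells only.

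**Figure D3:**
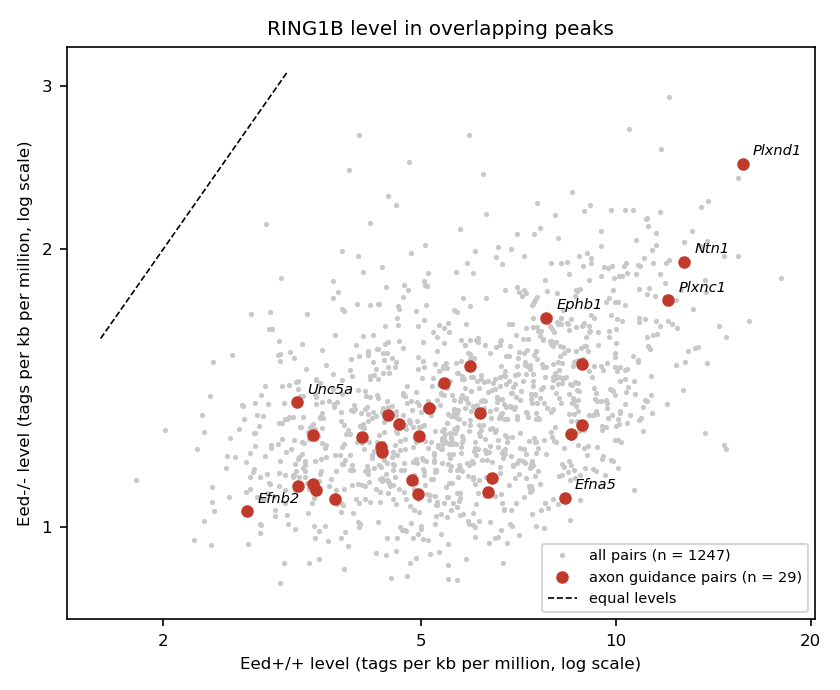
Eed-/- level is plotted against Eed+/+ level (tags per kb per 1000000 mapped tags, both axes log) for all 1247 pairs of overlapping peaks in grey and the 29 axon guidance pairs in red, with equal levels as a dashed line. All pairs lie below the line, and the axon guidance pairs lie within the cloud of the other pairs, with Plxnd1 at the upper right.

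Loci with more RING1B in Eed+/+ cells tended to have more in Eed-/- cells, with a Spearman rank correlation of 0.554 over the 29 axon guidance pairs and 0.406 over all 1247. All points come from the same 2 libraries, and the peaks of a pair share sequence. The ratio was lower where the Eed+/+ level was higher (rank correlation -0.954 over the 29 pairs and -0.881 over all), a relation in which the Eed+/+ level stands on both sides. At Ntn1, Efna3 and Plxnd1, the 3 loci that would keep more than 100 Eed-/- tags at the Eed+/+ depth, the median ratio was 0.158.

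Without a partner in the Eed-/- list were 15 Eed+/+ peaks. Those of highest fold enrichment were Sema6a (25.82, chr18:47525510-47528977), a transmembrane semaphorin with 421 tags and a level of 7.22, Epha5 (23.01, chr5:84844919-84847081), a receptor for ephrin-A ligands with 201 tags and a level of 5.53, and the peak named for Robo4 (22.65). Lrrtm1, a synaptic adhesion gene, had the highest level among them, 7.57 with 389 tags (chr6:77192266-77195323). The levels of the 15 ran from 2.20 at Sema4c to 7.57, and several were thus above those of pairs such as Slit3 and Unc5d. The other peaks of this class were named for Epha4, Ephb2, Ephb3, Epha10, Sema7a, Slit1, Ntng1, Ntn1 and Slitrk5, with 104 to 224 tags each. Had the 15 peaks held just 100 Eed-/- tags over the same width, their ratio would have been between 0.0568 at Sema6a and 0.230 at Ephb2. For 6 of the 15, namely Sema6a, Lrrtm1 (0.0614), Ntng1 (0.107), Epha5 (0.119), the upstream Ntn1 peak (0.120) and the peak named for Robo4 (0.127), these values lie below the lowest ratio seen in an axon guidance pair, 0.129. A peak also had to pass the FDR threshold in Eed-/- cells, so that these figures are no upper limits on the level there.

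Peaks of higher fold enrichment more often had a partner. Of the axon guidance peaks above the median Eed+/+ fold enrichment of 16.24, 20 of 26 (76.9%) had an Eed-/- partner, and of those at or below it 9 of 18 (50%), where the shares over all peaks were 66.8% and 39.6%. The exact binomial intervals of the member shares, 56.4 to 91 and 26 to 74, overlap, and they too measure no spread between samples.

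In Eed-/- cells only, peaks were listed at 3 genes. Plxna1, a semaphorin receptor that pairs with neuropilins, had 284 tags and a level of 1.28 (chr6:89311368-89314515), Efna1, an ephrin first found in endothelial cells, had 295 tags and a level of 1.18 (chr3:89082902-89086462), and Sema6d, a transmembrane semaphorin, had 119 tags and a level of 1.15 (chr2:124435314-124436791). All 3 covered an annotated start site of their gene, and their levels lay within the range of the paired Eed-/- peaks. At the Eed+/+ depth they would have held 67.9, 70.5 and 28.4 tags, below the minimum of 100. This is not particular to them, since 26 of the 29 paired Eed-/- members would also have held no more than 100 tags. The same was so in 1146 of all 1247 pairs. The absence of Plxna1, Efna1 and Sema6d from the Eed+/+ list therefore leaves room for levels there as high as those in Eed-/- cells.

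Statistical confidence was lower in the Eed-/- peaks than in the Eed+/+ peaks. The FDR of the members was at most 0.14% in Eed+/+ cells but 0.62% to 1.64% in Eed-/- cells, and 7 of 32 Eed-/- members (21.9%, beside 24.1% of all Eed-/- peaks) had an FDR of 1% or less. These were Plxna4, Slit2, Ntn1, Slitrk5, Efna3, Ephb1 and Plxnd1.

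Most axon guidance peaks sat at annotated start sites. A transcription start site lay within 1 kb of 42 of 44 Eed+/+ members (95.5%, beside 79.3% of all Eed+/+ peaks) and of 31 of 32 Eed-/- members (96.9%, beside 82.9%). The peak covered a start of the named gene itself in 37 of 44 (84.1%) and 30 of 32 (93.8%), where the shares over all peaks were 64.5% and 66.1%. A peak whose deposited name is not in the annotation counted as not covering. This lowers the shares over all peaks but not those of the members, whose genes were all in the annotation. Every member overlapped a CpG island, 44 of 44 and 32 of 32, as did 95.1% and 95.7% of all peaks in the lists.

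The exceptions were peaks that lay away from the start of the gene named for them. In Eed+/+ cells a peak each of Nrp2, Slitrk5 and Sema6c began inside the gene, 966, 644 and 935 bp beyond its nearest annotated start. The Sema6c peak ended past the annotated end of the gene at position 94977946. Both peaks named for Ephb3, at chr16:21246150-21247931 and chr16:21247948-21250185 with 114 tags each, lay 24391 and 26189 bp from the nearest annotated Ephb3 start, inside the annotated gene Gm16863. The peak named for Robo4, the Robo receptor of endothelial cells (chr9:37239664-37242855, 189 tags, level 3.52), lay 30033 bp from the nearest Robo4 start and over the start of Robo3 (chr9:37223254-37240760, minus strand), which lets commissural axons cross the midline. The window printed above is thus the sequence upstream of Robo3. A peak at Epha10 listed in both genotypes lay inside the gene over the start of 1700125G02Rik, and a further Epha10 peak, in Eed+/+ cells only, covered an Epha10 start.

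Width was compared because the extent of RING1B can change apart from its level. Member peaks had a median width of 2902 bp in Eed+/+ cells (1481 to 5738) and 2534 bp in Eed-/- cells (1182 to 5020), where all peaks had medians of 2665 and 2155 bp. Within the pairs the Eed-/- peak was the narrower in 24 of 29 (82.8%, beside 76.2% of all pairs), with a median width ratio of 0.818 (0.833 over all pairs). It lay wholly inside the Eed+/+ peak in 14 of 29 pairs (48.3%, beside 57.4%).

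**Figure D4:**
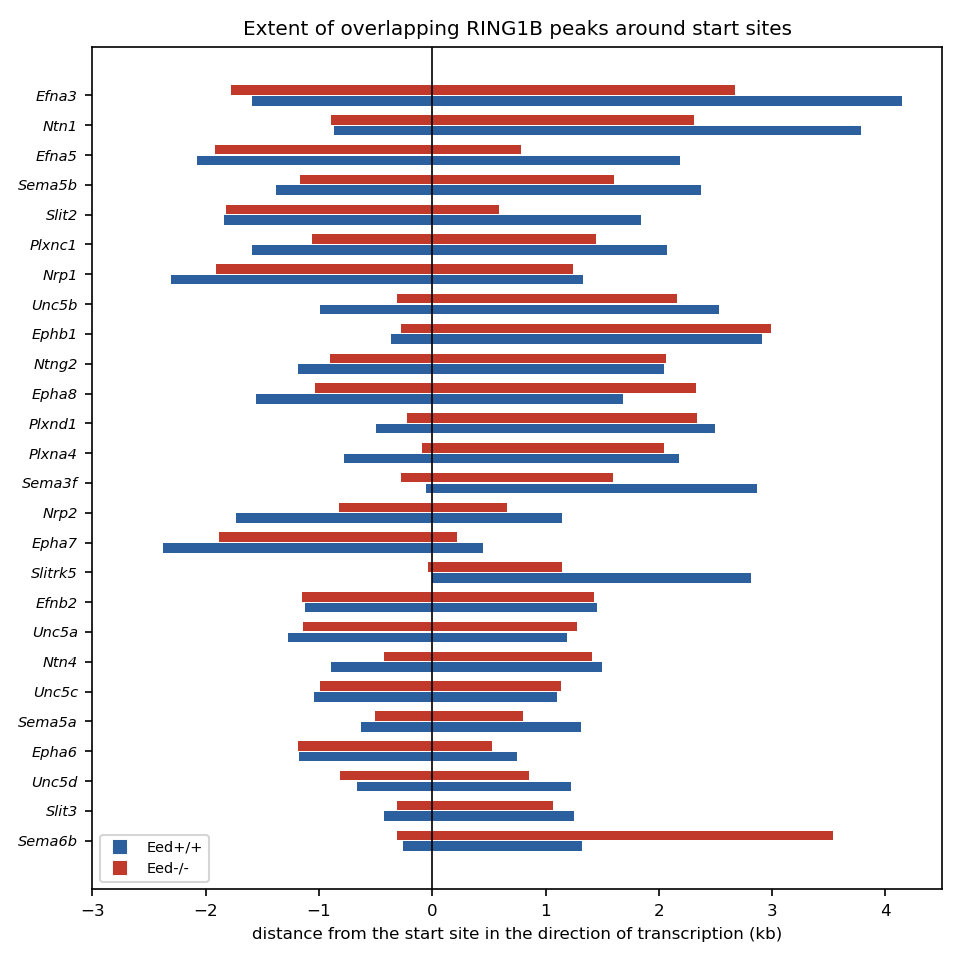
Bars give the extent of the RING1B peak in Eed+/+ (blue) and Eed-/- (red) cells around the start site, in kb in the direction of transcription, for the 26 axon guidance pairs whose Eed+/+ peak covered a start of the named gene. Where several starts were annotated, the one nearest the centre of the Eed+/+ peak was used. The Eed-/- bar ends short of the Eed+/+ bar on the downstream side at Slitrk5, Ntn1, Efna3 and Efna5, while at Sema6b it extends beyond.

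For the 26 pairs that covered a start, the median peak ran from 1083 bp before to 1764 bp after the start in Eed+/+ cells. In Eed-/- cells it ran from 899 bp before to 1420 bp after the start. Where a gene had several annotated starts, both peaks were measured from the one nearest the centre of the Eed+/+ peak. That start need not be the first of the gene, and the choice favours extents that reach to both sides of it. Narrowing was most marked on the downstream side of a few genes. The downstream edge was closer to the start by 1666 bp at Slitrk5, 1474 bp at Ntn1, 1472 bp at Efna3 and 1411 bp at Efna5. It was not general, since more was lost downstream than upstream in 15 of 29 pairs (51.7%, beside 52.2% of all pairs).

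At 5 genes the Eed-/- peak was the wider. Sema6b went from 1579 bp in Eed+/+ cells (chr17:56278447-56280025) to 3850 bp in Eed-/- cells (chr17:56276232-56280081), 2.44 times as wide and the largest such ratio among all 1247 pairs, with its downstream edge at 3534 bp after the start in place of 1319 bp. Sema6c went from 2928 bp (chr3:94975662-94978589) to 5020 bp (chr3:94973371-94978390), the widest Eed-/- member. Its Eed-/- peak took in an annotated start inside the gene that the Eed+/+ peak began 935 bp beyond. Epha10, Epha8 and Efnb2 differed by less, with width ratios of 1.12, 1.04 and 1.00. A width depends on depth and on the caller as well as on the extent of binding, and their part was not tested.

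Peak summits, the positions of highest tag density, were within 100 bp of each other in 15 of 29 pairs (51.7%, beside 50.7% of all pairs). They were 4 bp apart in the Nrp2 pair over the start site, 9 bp apart at Plxnd1 and at Plxna4, and 10 bp apart at Unc5b and at Slit2. The largest shifts were 2256 bp at Efna3, 1502 bp at Ephb1 and 1046 bp at Epha6.

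The Eed-/- peaks were also richer in CG than the Eed+/+ peaks. Median GC content was 59.5% for Eed+/+ members and 62.4% for Eed-/- members (58.3% and 60.9% over all peaks), and CG dinucleotides numbered 5.51 and 6.82 per 100 bases (5.01 and 6.20 over all). CpG islands filled a median of 44.0% of an Eed+/+ member and 57.6% of an Eed-/- member, beside 37.6% and 52.1% of all peaks. At Ntn1 the island share was 53.2% of the Eed+/+ peak and 77.2% of the Eed-/- peak, with 2476 bp of island in each. At Slitrk5 it was 32.6% and 77.6%, with 917 bp in each. At Sema6b it was 58.0% and 23.8%, with 916 bp in each. The shares at these loci thus differed through the width of the peak alone.

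Genes of axon guidance outside these families were also looked up, using a list of 36 that covers other receptors, cytoplasmic effectors and the Nogo receptors. Of these, 14 had an Eed+/+ peak and 12 an Eed-/- peak, where 8.09% and 6.75% of all annotated coding genes did. In both genotypes 10 were listed, though at Rgmb and Lingo3 the peaks of the 2 genotypes did not overlap. In Eed+/+ cells only 4 were listed, and in Eed-/- cells only 2 (Enah and Fyn). The other 20 were in neither, among them Draxin, a name that the annotation does not hold. Of the netrin receptors in this list, Dcc and Neo1 had no listed peak, whereas Dscam had one in both genotypes. The 4 Unc5 receptors were also listed in both. Trio, an exchange factor that acts downstream of Dcc, was at 6.68 in Eed+/+ and 1.20 in Eed-/- cells. Crmp1, a mediator of semaphorin signals, was at 5.67 and 1.89, and Rtn4rl1, a Nogo receptor homologue, at 7.23 and 1.51. Dscam, a netrin receptor, was at 5.48 and 1.49, and Ngef, an exchange factor downstream of Eph receptors, at 4.42 and 1.17. The levels given for these 5 genes lay within the ranges of the ligands and receptors in each genotype.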

How the data were processed

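RING1B peaks were analysed from the 2 deposited lists, 1 per genotype. The authors aligned tags to mm9 with Bowtie, discarded tags of ambiguous position, and ran MACS with an FDR under 2% and over 100 tags per peak. For Bowtie and MACS the version, and for MACS the control library, is not given in the sources used here. The deposited lists give the tag count, a fold enrichment ratio, an FDR in percent, a score and a gene assigned to each peak by proximity, and the authors' own overlap flags were not used.

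Peaks overlapped at 1 bp or more, and the partner was the peak of longest overlap. Levels were scaled by the mapped tags given in the study's methods. Shares carry exact binomial, levels exact Poisson and ratios exact conditional binomial intervals, all at 95%. Start sites came from GENCODE M1 on NCBIM37. Where a gene had several, the start closest to the peak, and among those inside it the one nearest its centre, was used. CpG islands were found by a running score (17 for each CG, -1 otherwise), with minimums of 200 bp in length, 50% in GC content and 0.6 in the ratio of observed to expected CG. Overlap and island searches were tested on simulated data.

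Values in full were planned for the 8 peaks of highest fold enrichment in each class, the highest of each family in each list, the 3 highest and 3 lowest ratios and the 3 widest peaks of each list. Where that ran to many, values are given as ranges. Sequences were to come from the peak of highest fold enrichment in each class, leaving out chromosome 18. Windows over an annotated UTR were also left out, so that Sema6a and Epha5 were passed over. Members and lists were chosen with earlier results of these data known. Python 3.11.15, numpy 2.4.6, scipy 1.17.1, numba 0.67.0 and matplotlib 3.10.9 were used.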

Additional observations from a re-analysis of the deposited data

How the results depend on the processing

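Of 31 alternatives over 13 results, 23 left the value within its counting interval, or a count within 1.5 times. When both lists were restricted to an FDR of at most 1%, 15.9% of Eed+/+ and 100% (7 of 7) of Eed-/- axon guidance peaks overlapped the other genotype, and 7 family genes kept an Eed-/- peak in place of 31. Requiring more than 100 Eed-/- tags at the Eed+/+ depth gave 6.82% and 100% (3 of 3), and a median level ratio of 0.158 in place of 0.252. These settings keep fewer peaks by construction, and not only among members. An FDR of 1% or less was held by 24.1% of all Eed-/- peaks, and 8.1% of all pairs kept more than 100 Eed-/- tags at the Eed+/+ depth. Taking CpG islands of at least 500 bp put 88.6% of Eed+/+ members on an island, and a start site lay within 5 kb of 100% of Eed-/- members. No paired analysis was possible because each genotype has 1 combined peak list, and for the same reason no replicate could be left out. The requirement of more than 100 tags leaves peaks of at least 101 tags in either list, and at the lower depth of the Eed+/+ library it leaves out peaks of a level that the Eed-/- list can hold.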

Other observations

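Deposited gene names and annotated positions disagreed at a few further loci of these families. Ntn3, which encodes a netrin, had a peak within 1 kb in both genotypes that was named for Tbc1d24. Ntn5 had a peak within 1 kb in Eed-/- cells that was named for Car11. Counted by a peak within 1 kb of the gene in place of the deposited name, 39 family genes had an Eed+/+ peak and 33 an Eed-/- peak, beside 39 and 31 by name.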
